A study of Mus musculus with 28 samples.

Results

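The ribosome in the cytosol of a mouse cell is built from a large and a small subunit, each made of ribosomal RNA and a fixed set of ribosomal proteins. Their genes, named Rpl for the large subunit and Rps for the small, are scattered over the genome, are transcribed at high rates in dividing cells, and give mRNAs that begin with a run of pyrimidines, the 5' TOP tract, through which the mTORC1 kinase and the protein Larp1 set their translation and stability. A cell that stops dividing needs fewer new ribosomes, and in muscle the number of ribosomes limits how much contractile protein can be made.

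The genes were taken by name from a count table of RNA-seq of C2C12 cells: protein-coding rows called Rpl or Rps with a number, or Rplp0, Rplp1, Rplp2 or Rpsa, other than the Rps6k kinases, with at least 500 counts in all. Of 84 rows that matched by name, 81 reached the minimum, among 49089 genes in the table. They comprise 77 core ribosomal proteins (46 of the large and 31 of the small subunit) and 4 relatives of a core protein, called paralogs here: Rpl7l1, Rpl22l1, Rps27l and Rpl6l. The minimum fell in a wide gap, with Rpl6l inside it at 4743 counts over all libraries and Rpl3l, Rpl39l and Rpl10l outside it at 6, 1 and 0 counts. All 81 passed the filter on low counts and were tested among 15303 genes.

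C2C12 is an established wild-type myoblast line of mouse that fuses into myotubes when serum is withdrawn, and all libraries came from this 1 line. Proliferating cells were kept in growth medium (GM, 20% fetal bovine serum), and nearly confluent cultures were moved to differentiation medium (3% horse serum) for 12, 24, 48, 60 or 96 h. Total RNA of each of the 6 groups gave 3 strand-specific libraries, labelled as biological replicates, with total counts of 24154680 to 36405121 each. ATAC-seq (2 libraries a condition) and Hi-C (3 a condition) compared GM with 60 h, and each deposited 1 peak list, boundary list or loop set per condition, so that these carry no replicate error here.

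The libraries followed their labels. Myogenin (Myog), which marks commitment to fusion, had a mean of 13.4 CPM (counts per 1e6 of the scaled library) in GM and 803 at 96 h, and muscle creatine kinase (Ckm) went from 0.645 to 110 CPM. Of 7 muscle markers found under their listed name, 6 were higher at 96 h and Myf5, a factor of undifferentiated myoblasts, was lower. Myomaker, listed as Tmem8c and outside this count, went from 2.48 to 216 CPM. Of 12 markers of other lineages (fat, blood, endothelium, epithelium, bone and neurons), 10 were too low to be tested, at most 0.297 CPM in any library. Cd68 reached at most 2.26 CPM, and the neuronal tubulin Tubb3 fell from 71.0 to 19.7 CPM. The part of these changes in cell state in the results was not tested.

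The sequences around the annotated start are shown because control of these mRNAs rests on the TOP tract, which not every line holds. RefSeq's table of promoters on GRCm38.p6 had 71 entries for 60 of the 81 genes. The 11 lines below show 60 bases each, from 40 before the annotated start to 20 after it, for the 5 core genes that fell most by 96 h (Rps12, Rpl12, Rpsa, Rplp0 and Rplp2), the 5 that fell least (Rpl9, Rpl39, Rpl38, Rpl24 and Rps27) and Rps6, the subunit phosphorylated downstream of mTORC1; the ranking covers genes with a single entry. Capitals mark the longest pyrimidine run of at least 5 bases that begins with C within 20 bases of the start, and lines without capitals have none. Rpl39 has another run of the same length nearer the start, which is not marked.
Rps12: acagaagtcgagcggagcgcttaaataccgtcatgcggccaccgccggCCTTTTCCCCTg
Rpl12: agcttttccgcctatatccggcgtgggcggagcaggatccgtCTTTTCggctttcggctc
Rpsa: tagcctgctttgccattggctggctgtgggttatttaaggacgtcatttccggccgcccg
Rplp0: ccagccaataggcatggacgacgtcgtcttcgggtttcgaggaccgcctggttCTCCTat
Rplp2: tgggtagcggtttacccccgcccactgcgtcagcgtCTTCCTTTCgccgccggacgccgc
Rpl9: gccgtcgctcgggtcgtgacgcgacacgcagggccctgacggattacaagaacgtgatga
Rpl39: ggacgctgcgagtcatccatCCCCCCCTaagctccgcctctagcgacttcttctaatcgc
Rpl38: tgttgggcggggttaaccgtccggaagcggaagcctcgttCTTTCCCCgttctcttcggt
Rpl24: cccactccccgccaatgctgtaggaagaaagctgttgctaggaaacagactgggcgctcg
Rps27: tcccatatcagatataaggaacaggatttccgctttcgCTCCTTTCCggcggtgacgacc
Rps6: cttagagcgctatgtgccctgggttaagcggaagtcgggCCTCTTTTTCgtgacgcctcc
The 5 genes that fell most lie at chr10:23787190-23787249 (Rps12, minus strand), chr2:32961672-32961731 (Rpl12, plus strand), chr9:120127726-120127785 (Rpsa, plus strand), chr5:115559427-115559486 (Rplp0, plus strand), chr7:141447611-141447670 (Rplp2, plus strand). Those that fell least lie at chr5:65391412-65391471 (Rpl9, minus strand), chrX:37085203-37085262 (Rpl39, minus strand), chr11:114668540-114668599 (Rpl38, plus strand), chr16:55966235-55966294 (Rpl24, plus strand), chr3:90213629-90213688 (Rps27, minus strand), and Rps6 lies at chr4:86857348-86857407 (Rps6, minus strand). The annotated start is not always the base at which transcription begins: counting the start as position 1 and the base before it as -1, the run of 11 pyrimidines in Rps12 begins at position 9, the run of 9 in Rplp2 at position -4, and the run of 8 in Rpl38 at position 1.

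A tract at the annotated start (C followed by at least 4 pyrimidines) was found in 18.3% of the genes' 71 entries and in 2.51% of all 32851 entries of the table. With any C-led run of at least 8 pyrimidines within 20 bases of the start, the shares were 43.7% and 12.6%. The 13 genes with a tract at the annotated start had a median log2 fold change at 96 h against GM of -0.61, and the 47 without had -0.66. By the longer run the order turned, with -0.72 in the 30 genes with one and -0.62 in the 30 without. The ETS core CCGGAA, searched on both strands of the 300 bases, was in 49.3% of the genes' entries, in 30.2% of entries of protein-coding genes at or above the level of the lowest member other than Rpl6l, and in 14.9% of all entries. AAGATGG, a YY1-type sequence, was in 16.9% against 7.56% of entries at that level. The E box CACGTG was in 11.3% against 10.6%, and TATAAA in 9.86% against 6.96%. CCGGAA can share bases with AAGATGG, and a match is only a match of letters. The 96 h medians of genes with and without CCGGAA were -0.61 and -0.71.

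The share of counts on the ribosomal protein genes fell during differentiation. In GM they took 4.63% ± 0.0530 of all counts (SD, n = 3), with libraries at 4.57 to 4.67%. The share was 4.43% ± 0.0427 at 12 h, 3.89% ± 0.0849 at 24 h, 3.00% ± 0.0258 at 48 h, 3.07% ± 0.0432 at 60 h and 2.69% ± 0.0163 at 96 h (SD, n = 3 each). At each time all 3 libraries lay below those of GM, and the libraries of 48 h and 60 h overlapped. Of protein-coding counts the genes held 6.53% in GM and 3.93% at 96 h, a ratio of 0.602, with p = 0.1 in an exact two-sided permutation test, the smallest that 3 libraries against 3 allow. These are shares of a bulk sample, so that fewer dividing cells and less ribosomal protein mRNA per cell cannot be told apart, and RNA per cell was not measured.

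**Figure D1:**
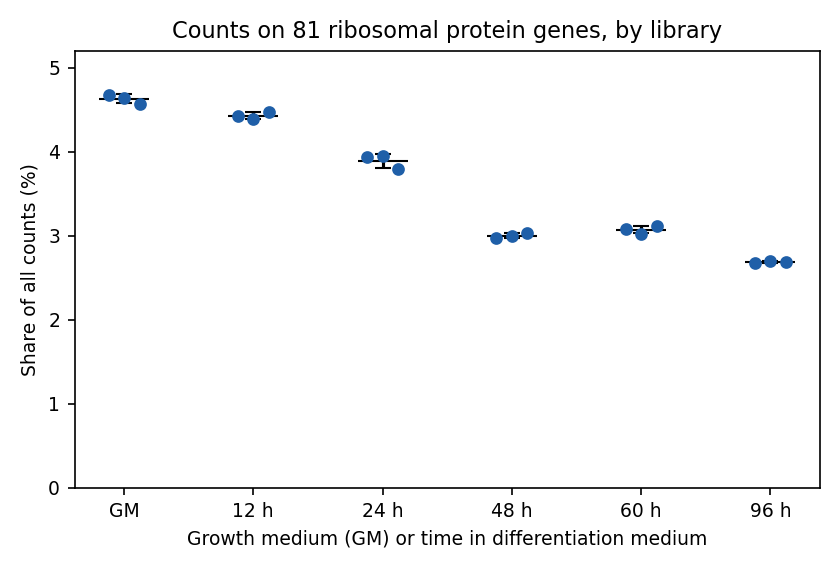
Share of all counts (percent, linear axis from 0) on the 81 ribosomal protein genes in each of 18 libraries (points), with the mean and SD of each group (black); the x axis gives growth medium and hours in differentiation medium, equally spaced. The share falls from 4.63% in GM to 3.00% at 48 h and 2.69% at 96 h, and libraries of 1 group lie close together.

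Gene by gene, nearly all of the set was lower than in GM by 48 h. Tests were edgeR quasi-likelihood tests on all 15303 genes, with a call at a Benjamini-Hochberg adjusted p under 0.05 over all of them, and all 81 genes differed from GM at some time, beside 86.0% of all genes tested. At 12 h, 27 of the 81 were lower than in GM and 0 were higher, with 17.2% of all genes lower and 17.8% higher, and the genes' median log2 fold change was -0.09. Unadjusted p-values under 0.05 gave 39 lower and 2 higher, and no count over all genes is given at this cutoff, here or below. DESeq2 called 22 lower and 2 higher, beside 2194 and 2820 of the 15872 genes it tested. At this first time the count depended on single libraries: it ranged from 8 (without the first GM library) to 26 over the libraries left out in turn. When no filter on low counts was applied it was 14, beside 2187 lower among 26774 genes. The median was -0.06 without the third 12 h library and -0.18 with a covariate for the mean log2 CPM of 21 very long transcripts. That mean was 8.49 in GM and 7.84 at 12 h, and its part in the change was not tested.

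At 24 h, 72 genes were lower and 1 higher, beside 30.6% and 30.2% of all genes, with a median of -0.29. The third 24 h library stood apart, with the long-transcript mean at 8.46 beside 8.04 and 7.92 and the lowest share of the genes of its group, and without it the median was -0.24. At 48 h, 79 were lower and 0 higher, beside 32.8% and 32.5%, with a median of -0.59. Unadjusted p-values under 0.05 and DESeq2 both gave the same 79 and 0. Of the 18986 genes that DESeq2 tested, 4743 were lower and 4798 higher. At 60 h, 76 were lower and 1 higher, beside 32.2% and 33.1%, with a median of -0.48. At 96 h, 80 were lower and 1 higher, beside 34.1% and 34.8%, and the median of -0.66 put the typical gene at 63.1% of its GM level. The scaling sets the middle of all genes near 0 (medians at most 0.01 from 0 at these 5 times), so that all values are relative to the other genes.

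**Figure D2:**
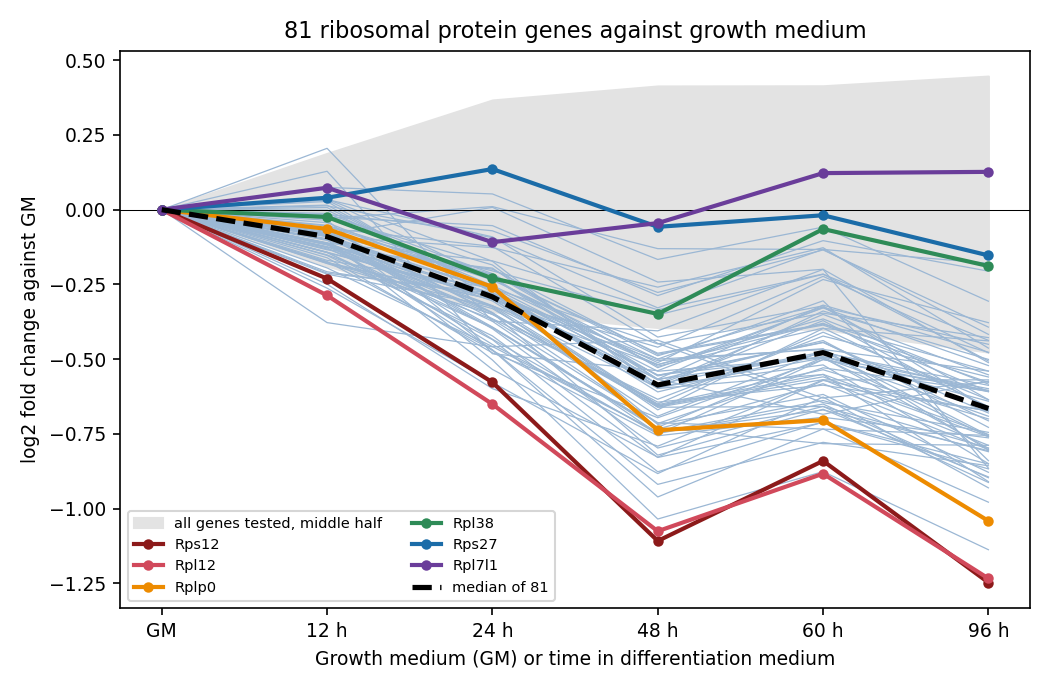
log2 fold change against growth medium (edgeR, y axis) of each of the 81 genes (thin lines) at 12, 24, 48, 60 and 96 h (equally spaced), with 6 genes in colour, the median of the 81 (dashed) and the interquartile range of all genes tested (grey). The median falls to -0.59 at 48 h, lies at -0.48 at 60 h and ends at -0.66. At 96 h Rps12 and Rpl12 lie lowest and Rpl7l1 lies above 0.

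The steps between neighbouring times show when the fall took place. From 12 to 24 h, 65 genes fell and 1 rose (26.5% and 27.8% of all genes), with a median of -0.19. Rps27l at -0.61, Rpl22l1 at -0.58 and Rpsa at -0.44 fell most in this step, and the gene that rose was Rpl10, by 0.09. Rpl10, a late-joining large subunit protein near the peptidyl transferase centre, had 719, 702 and 723 CPM at 12 h and 784, 761 and 742 at 24 h (adjusted p = 0.038, edgeR). The call was lost in at least 13 of 18 omissions of a library, with no filter on low counts and with the step's 2 groups fitted alone. It was also lost with the long-transcript covariate, which left 43 genes lower in the step, beside 3345 of all 15303 genes. From 24 to 48 h, 74 fell and 0 rose (14.8% and 17.5% of all genes), with a median of -0.29. The largest falls were in Rps12 and Rpsa (both -0.53) and Rplp1 (-0.49). Unadjusted p-values under 0.05 gave 77 and 0. DESeq2 also gave 77 and 0, beside 2194 lower and 2295 higher of the 16391 genes it tested.

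Between 48 and 60 h the direction turned. In this step 37 genes rose and 1 fell, beside 15.8% and 11.3% of all genes, and the median was 0.13. The largest rises were those of Rpl38 at 0.28, Rpl9 at 0.28 and Rpl14 at 0.27. Rpl38, a large subunit protein known for its effect on translation of Hox mRNAs, had 119, 119 and 128 CPM at 48 h and 146, 142 and 157 at 60 h, which do not overlap (adjusted p = 0.00021, edgeR). In this step 58 of the 81 genes and 26.6% of all genes tested lay higher without overlap. The gene that fell was Rpl28, at 186, 180 and 183 CPM and then 155, 162 and 161. The number of genes called depended on the settings, for these genes and for all 15303. With upper-quartile scaling 24 genes rose, beside 1787 of all genes. With total counts 17 rose and 4 fell (median 0.03), beside 998 and 3101 of all genes (median -0.08). With a covariate for long transcripts 9 rose, beside 909 of all genes. Leaving out the first 48 h library left 19. The 7SL RNA rows Rn7s1 and Rn7s2 took 19.8% of counts at 48 h and 23.8% at 60 h, and their part in the step was not tested.

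From 60 to 96 h, 58 genes fell and 0 rose (24.6% and 22.6% of all genes), with a median of -0.20. Unadjusted p-values under 0.05 gave 63 and 1. DESeq2 gave 56 and 1, beside 3354 lower and 3398 higher of the 16910 genes it tested. Rpl22l1 at -0.66, Rps20 at -0.53 and Rps12 at -0.41 fell most. Rps20, a protein of the small subunit head, had 552, 539 and 561 CPM at 60 h and 367, 367 and 407 at 96 h. The list of long transcripts moved the other way here, with a mean of 7.78 log2 CPM at 60 h and 8.66 at 96 h. With that mean as a covariate of the libraries, 2 genes fell and 1 rose in this step, beside 975 and 815 of all 15303 genes. The median of the ribosomal protein genes was then -0.04. With groups in the fit, the covariate's slope rests on the spread within groups. There the SD of the mean was 0.28 at 24 h and 0.026 to 0.081 in the other groups. The part of the long transcripts in this step was not tested. Against GM, where the list's mean was 8.49, the covariate left the counts at 96 h on their side.

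Over the 6 groups, 67 of the 81 genes had their highest mean in GM and 10 at 12 h. The lowest mean was at 96 h for 58 genes and at 48 h for 20.

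The members did not fall to the same extent. At 96 h the core genes ranged from -1.25 (Rps12) to -0.15 (Rps27) on the log2 scale. The median was -0.61 over the 49 large subunit and -0.71 over the 32 small subunit genes, with paralogs counted on the side of their relative. At 48 h these medians were -0.58 and -0.59 and at 60 h -0.49 and -0.46, and the difference between subunits was not tested. Rps12, a protein of the small subunit beak that lies on mouse chromosome 10, had 1661, 1609 and 1575 CPM in GM, 726, 767 and 755 at 48 h, 884, 887 and 935 at 60 h, and 641, 667 and 733 at 96 h. Every library in differentiation medium lay below every library of GM, and its log2 fold change at 96 h was -1.25 (SE 0.06, adjusted p = 9.1e-15, edgeR). At 96 h, 79 of the 81 genes and 35.4% of all genes tested lay below GM without overlap.

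Rpsa, the laminin receptor protein of the small subunit, had 1460, 1467 and 1426 CPM in GM and 633, 634 and 711 at 96 h. It was not called at 12 h, at 1453, 1402 and 1309 CPM, and reached -1.14 at 96 h (SE 0.05). Rps12 was called at 12 h, and the difference between the courses of these genes was not tested.

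The lateral stalk of the large subunit recruits the translation factors: Rplp0 is its foot, dimers of Rplp1 and Rplp2 are its flexible arms, and Rpl12 lies at its base. All 4 genes were lower at 24, 48, 60 and 96 h, and at 96 h they held 4 of the 6 lowest places of all 81, with a median of -1.01. With its copies added, Rps2 (-0.96) lies below Rplp2 (-0.93), and the stalk genes then hold 3 of those 6 places. They were put together after their values were seen, so that this is a description. Rpl12 had 858, 856 and 769 CPM in GM and 341, 348 and 367 at 96 h, and its log2 fold change was -1.23 (SE 0.05, adjusted p = 7.2e-16, edgeR). Rplp0, widely used as a reference gene in quantitative PCR, had 1945, 1919 and 1932 CPM in GM, 1929, 1892 and 1722 at 12 h, 1119, 1202 and 1155 at 48 h, and 898, 905 and 1013 at 96 h. Its fall was thus 2.06-fold (log2 -1.04, SE 0.05). Rplp1 went from 1165, 1190 and 1125 CPM to 564, 582 and 620, and Rplp2 from 415, 418 and 366 to 211, 209 and 209. In each of the 4 genes the 96 h libraries lay below every GM library, as in 79 of the 81 genes and 35.4% of all genes tested.

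**Figure D3:**
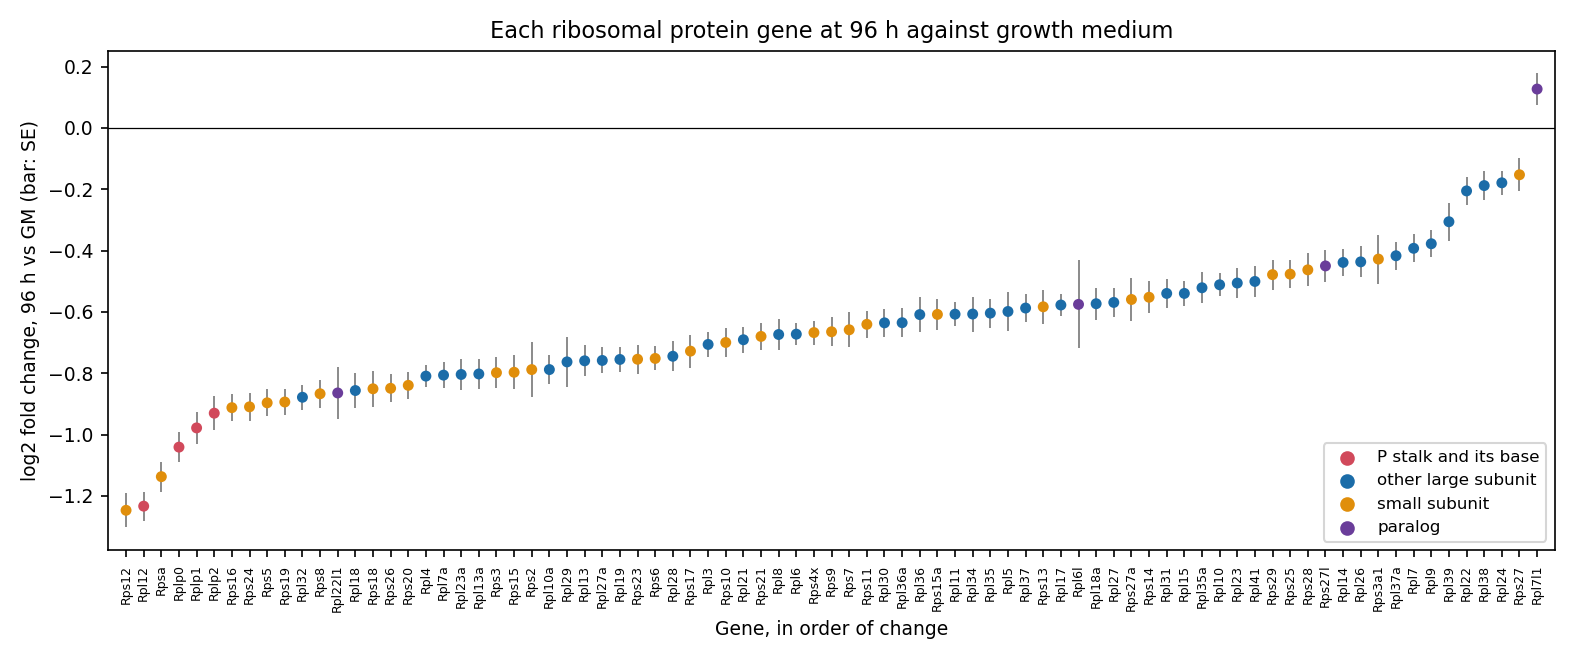
log2 fold change at 96 h against growth medium for each of the 81 genes in order of change (points; bars are 1 SE from edgeR), coloured by subunit, with the stalk proteins and the paralogs in colours of their own. Rps12, Rpl12, Rpsa and Rplp0 lie lowest, at -1.25 to -1.04, Rps27 is the highest core gene at -0.15, and Rpl7l1 is the gene above 0.

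Other members of known roles lay between these ends. Rps19 and Rps24 of the small subunit and Rpl5, Rpl11 and Rps26, all of which are mutated in Diamond-Blackfan anaemia, had 96 h log2 fold changes of -0.89, -0.91, -0.60, -0.61 and -0.85. Rpl5 and Rpl11 form, with 5S RNA, the particle that binds Mdm2, and Rpl11 had 533, 536 and 508 CPM in GM and 339, 347 and 349 at 96 h. Rps6 had 926, 963 and 930 CPM in GM and 558, 557 and 560 at 96 h, a change of -0.75. Rps3 of the mRNA entry channel changed by -0.80, Rpl13a by -0.80, Rpl23 by -0.51, Rps28 by -0.46, Rps29 by -0.48, Rpl41 by -0.50 and Rps27a, which is made as a fusion with ubiquitin, by -0.56. All of these passed the test.

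The genes that fell least were Rps27, Rpl24, Rpl38, Rpl22 and Rpl39. Rps27, a zinc-binding protein of the small subunit, had 229, 223 and 235 CPM in GM, 251, 260 and 243 at 24 h, and 199, 190 and 229 at 96 h. It rose by 0.14 at 24 h (adjusted p = 0.035, edgeR) and was lower by 0.15 at 96 h (adjusted p = 0.017), a call that was lost without the second 96 h library. The 24 h call was lost without the second GM library, without the first or the second 24 h library, and with the long-transcript covariate. The third 96 h library lay within the range of GM. At 48 and 60 h its log2 fold changes of -0.06 and -0.02 did not pass. Rpl24, which joins the 60S subunit late and forms a bridge to the 40S, had 301, 289 and 307 CPM in GM and 266, 258 and 268 at 96 h, a change of -0.18 (SE 0.04). Rpl38 and Rpl22 changed by -0.19 and -0.21, and Rpl39 of the exit tunnel by -0.31.

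To separate the genes' own courses from the common fall, the libraries were scaled so that the median ratio of the 77 core genes was 1 in each, and all genes were tested again. On this scale 61 of the 81 genes differed at some time, beside 90.9% of all genes tested. The spread among core genes grew with time: the SD of their log2 fold changes was 0.08 at 12 h, 0.15 at 24 h, 0.20 at 48 and 60 h, and 0.22 at 96 h. At 96 h Rps12 lay below the core median by -0.58 (SE 0.04, adjusted p = 5.3e-11), Rpl12 by -0.56 and Rpsa by -0.47. Rps27 lay above it by 0.52 (SE 0.05, adjusted p = 9.4e-09), Rpl24 by 0.49 and Rpl38 by 0.48. At 24 h Rpl12 was at -0.36, Rps12 at -0.29 and Rps27 at 0.43. Rpl38 was at 0.06 at 24 h and 0.41 at 60 h. Rplp0 was at 0.03 at 24 h and -0.37 at 96 h.

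The paralogs differed in their courses. Rpl7l1, a relative of Rpl7 found with ribosome precursors, had 89.9, 97.8 and 96.1 CPM in GM and 101, 104 and 105 at 96 h. It was the gene called higher than in GM at 60 h, by 0.12 (adjusted p = 0.041, edgeR), and at 96 h, by 0.13 (adjusted p = 0.033). The 60 h call was lost in 17 of 18 omissions of a library and the 96 h call in 7 of 18. Both were lost with total counts, a protein-coding library size or no filter on low counts. The 60 h call was lost in DESeq2, and with the long-transcript covariate the 60 h value was -0.14. Against the core median it lay 0.80 higher at 96 h (adjusted p = 2.3e-12). Its share of the counts of Rpl7 and Rpl7l1 together was 8.13% ± 0.211 in GM and 11.3% ± 0.274 at 96 h (SD, n = 3 each), without overlap (exact permutation p = 0.1, the smallest possible).

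Rpl22l1, which can replace Rpl22 in the ribosome and whose splicing and level respond to loss of Rpl22, fell more than its relative. It had 110, 127 and 109 CPM in GM, 119, 131 and 149 at 12 h, 90.5, 94.6 and 82.4 at 24 h, and 64.2, 71.0 and 55.1 at 96 h, when its log2 fold change was -0.86 (SE 0.09). Rpl22 had 262, 260 and 250 CPM in GM and 227, 225 and 217 at 96 h. The Rpl22l1 share of the pair was thus 31.0% ± 1.78 in GM, 34.4% ± 1.73 at 12 h, 26.5% ± 0.253 at 24 h, 29.3% ± 0.521 at 48 h, 29.6% ± 1.08 at 60 h and 22.1% ± 1.86 at 96 h (SD, n = 3 each). Against GM the exact permutation p was 0.1 at 24 and 96 h, the smallest possible, and 0.3 and 0.4 at 48 and 60 h. Rps27l, a p53-responsive relative of Rps27, held 36.7% ± 0.907 of its pair in GM, 38.1% ± 1.38 at 12 h, 27.4% ± 0.0255 at 24 h, 31.9% ± 0.942 at 60 h and 32.1% ± 3.58 at 96 h (SD, n = 3 each). Its own log2 fold change between 12 and 24 h was -0.61 (SE 0.05), while that of Rps27 was 0.10 and not called. Rpl6l, the least counted member at 6.42 to 12.4 CPM over all libraries, was at -0.58 at 96 h. Against the core median at 96 h, Rpl6l at 0.10 and Rpl22l1 at -0.19 were not called, and Rps27l was at 0.22. Their relatives Rpl22 and Rps27 lay above the core median by 0.47 and 0.52, which also enters the shares of these pairs.

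**Figure D4:**
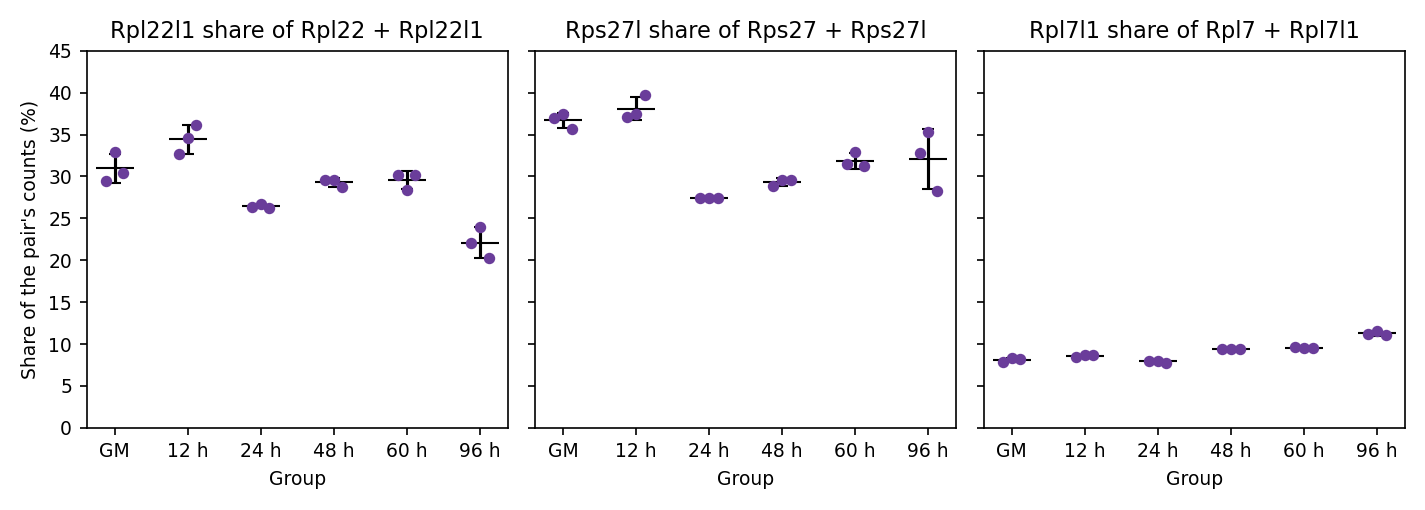
Share of the paralog in the summed counts of each pair (percent, linear axis from 0) in every library (points), with mean and SD per group (black), for Rpl22 and Rpl22l1, Rps27 and Rps27l, and Rpl7 and Rpl7l1. Rpl22l1 drops to 22.1% at 96 h, Rps27l drops between 12 and 24 h, and Rpl7l1 reaches 11.3% at 96 h.

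Rpl3l replaces Rpl3 in adult heart and skeletal muscle fibres. It had 6 counts over all 18 libraries, and 0, 0 and 1 in the libraries of 96 h, where 3 counts would equal 0.0987 to 0.105 CPM. Rpl3 itself went from 68334 counts in the 3 GM libraries to 41212 at 96 h, a change of -0.71. The paralogs Rpl10l and Rpl39l, known from the male germ line, had 0 counts and 1 count in all.

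Processed copies of ribosomal protein genes affect what a row means. Rows named as pseudogenes of ribosomal protein genes (-ps), with Rps3a2 and Rps3a3, number 279, of which 208 had counts, and 60 of the 81 genes have such a row. For most genes they are small, with a median of 0.383% of the summed counts of the gene and its copies, but 7 genes had over 10%. The Rps2 row held 33719 counts and its copies 724335, and the Rpl3 copies held 239249 beside 335935. The single Rps26 copy held 82231 beside 107984. Rps3a2 and Rps3a3, named without -ps but not among the protein-coding rows, held 423670 beside 109890 on Rps3a1. Reads cannot be placed surely between near-identical copies, so the rows of Rps2, Rps3a1, Rps26 and Rpl3 are uncertain by themselves. With the copies added, the 96 h log2 fold changes were -0.96 for Rps2 (-0.79 alone), -0.35 for Rps3a1 (-0.43 alone, adding Rps3a2 and Rps3a3), -0.87 for Rps26 (-0.85 alone) and -0.69 for Rpl3 (-0.71 alone). Of 111 of these rows that were tested, 63 were lower at 96 h, with a median of -0.65, beside 34.1% of all genes. With the copies added, every gene called in a comparison kept its call and direction; the addition of Rps3a2 and Rps3a3 was chosen after seeing the data.

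Genes that make, assemble or use ribosomes gave a frame for these values. Of all genes tested, 17.2% were lower and 17.8% higher at 12 h. These shares were 30.6% and 30.2% at 24 h, and 34.1% and 34.8% at 96 h. Among ribosomal proteins that the naming rule leaves out, Rack1, the scaffold on the 40S head, changed by -0.80 at 96 h, Fau by -0.52 and Rpl36al by -0.28, and each was called lower. Of 7 elongation factor genes, 4 were lower at 24 h and 7 at 96 h (median -0.49), with Eif5a at -0.76, Eef1d at -0.61 and Eef2k, a kinase of Eef2, at -0.50. Of 27 initiation factor genes, 20 were lower and 2 higher at 24 h, and 23 and 2 at 96 h (median -0.34). Eif3c at -0.84, the helicase Eif4a1 at -0.73 and Eif6 at -0.71 were lower at 96 h, and the 2 higher were the helicase paralog Eif4a2 at 0.96 and Eif4g2 at 0.32.

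Of 14 other genes whose mRNAs have a TOP tract, 4 were lower and 2 higher at 24 h, beside 30.6% and 30.2% of all genes. Their median was then -0.06, beside -0.29 for the ribosomal proteins. At 96 h, 12 of the 14 were lower (median -0.35), beside 34.1% of all genes. The largest changes at 96 h were those of Hnrnpa1 at -1.62, Vim at -1.24, Pabpc1 at -1.24 and Npm1 at -1.21. Of 8 noncoding hosts of small nucleolar RNAs, all 8 were lower at 12 h (median -0.64) and at 96 h (median -1.09), with Snhg8 at -1.49, Snhg5 at -1.32 and Gas5, whose transcript itself has a TOP tract, at -1.16.

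Of 20 ribosome biogenesis genes, 19 were lower at 12 h and 20 at 24 h, with medians of -0.48 and -1.08. From 24 to 48 h 13 of them rose and 1 fell (median 0.21), beside 17.5% and 14.8% of all genes. In that step 74 ribosomal protein genes fell. At 96 h, 18 were lower than in GM and Rrp12 was higher, with a median of -0.60. Nop56 at -1.49 and the pseudouridine synthase Dkc1 at -1.26 changed most. Of 15 rows for RNA polymerase I and its factors, 12 were lower at 24 h and 11 at 96 h, when Rrn3 at 0.33 and Taf1a at 0.32 were higher. Taf1d changed by -0.67 and Ubtf by -0.55 at 96 h. Among 78 rows for mitochondrial ribosomal proteins, 60 were lower and 3 higher at 24 h, and 48 and 10 at 96 h, with medians of -0.37 and -0.22. In the step from 48 to 60 h 38 of these rows rose (median 0.19), beside 15.8% of all genes. The difference between these rows and the cytosolic set was not tested.

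**Figure D5:**
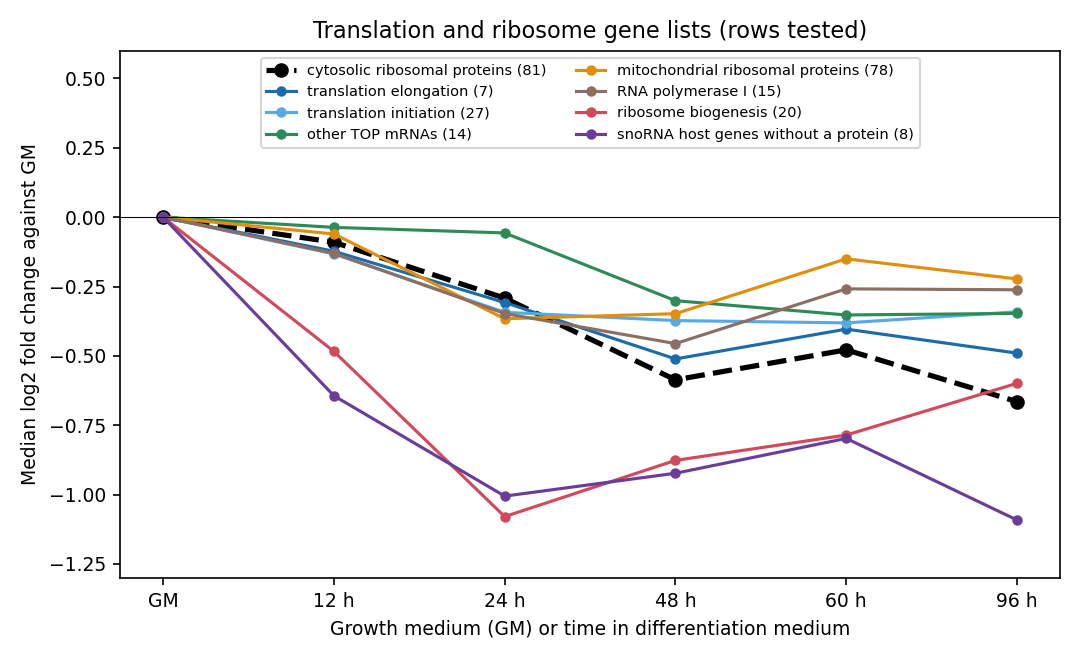
Median log2 fold change against growth medium (y axis) of the cytosolic ribosomal protein genes (dashed) and of 7 other gene lists at 12, 24, 48, 60 and 96 h, equally spaced, with the number of rows tested in the key. At 24 h biogenesis genes and snoRNA hosts are at -1.08 and -1.01, the ribosomal proteins at -0.29 and the other TOP mRNAs at -0.06.

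Several ribosomal proteins have a chaperone of their own that holds the free protein before assembly, and 7 such genes were listed. At 24 h, 6 were lower (median -0.47) and at 96 h 5 were lower and 1 higher (median -0.20). Grwd1, the chaperone of Rpl3, was at -1.55 at 24 h and -0.84 at 96 h, when Rpl3 was at -0.71. Tsr2, the chaperone of Rps26, was at -0.90 at 24 h and at -0.03 and not called at 96 h, when Rps26 was at -0.85. Pdcd2, which binds Rps2, was at -0.53 at 96 h, and Ltv1, a partner of Rps3, at -0.44. Aamp, the relative of the yeast chaperone of Rpl10, was the gene called higher, at 0.31.

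Of 17 rows for 16 genes of mTORC1 and TOP control, 7 were lower and 2 higher at 24 h, and 5 lower and 7 higher at 96 h, when 34.1% of all genes were lower and 34.8% higher. Larp1, which binds the cap and TOP tract, was at -0.70 at 24 h and -0.17 at 96 h. Sesn2 was at -1.65 at 24 h and Eif4ebp1 at -1.05. At 96 h Deptor, an mTOR inhibitor, was at 1.06 and Ddit4 at -1.11. These are mRNA levels and say nothing of kinase activity.

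Open chromatin at the start of the genes was present in both conditions. All 60 genes with a RefSeq promoter entry had an ATAC peak within 500 bases of the annotated start in GM and at 60 h. The share was 98.3% in each condition for 5323 protein-coding genes at or above the level of the lowest member other than Rpl6l. The 21 genes without such an entry were not examined here or for boundaries and loops. The authors' fold enrichment of the highest peak at each start had a median of 6.04 in GM (2.84 to 8.82) and 6.51 at 60 h (2.85 to 9.08), values from lists called separately that can show neither a change nor its absence. At Rps12 the peak spanned chr10:23786530-23788432 in GM (fold 4.02) and chr10:23786671-23788157 at 60 h (fold 5.50). At Rplp0 it spanned chr5:115559171-115560169 in GM (fold 6.90) and chr5:115559169-115560173 at 60 h (fold 7.65). At Rps27 it spanned chr3:90213323-90214243 in GM (fold 8.62) and chr3:90213199-90214256 at 60 h (fold 7.81). A peak was thus called in both conditions at Rps12 and Rplp0, which fell far, and at Rps27, the core gene that fell least.

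Of the 60 starts, 4 lay in a 40 kb boundary bin between topological domains in GM and 7 at 60 h. The shares were 6.41% and 6.29% among the same 5323 genes, a set with a lower bound on level that is not matched in level. Within 1 bin of a boundary the counts were 17 and 16, or 28.3% and 26.7%, beside 17.96% and 18.6%. In a 25 kb anchor of a called loop lay 41 starts in GM and 38 at 60 h, or 68.3% and 63.3%, beside 67.2% and 59.0%. With 1 list per condition these are descriptions without a test.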

How the data were processed

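Read counts per gene for 18 RNA-seq libraries were deposited by the authors as whole numbers, made with STAR and RSEM 1.3.0 on mm10 per the submitters' processing notes. Normalization factors (TMM), the filter on low counts (filterByExpr) and quasi-likelihood tests used edgeR 4.0.16 in R 4.3.3 on all 6 groups without a replicate term, with adjusted p under 0.05 over 15303 genes as a call. CPM values use the scaled library size, standard errors come from the fold change and its F statistic, and DESeq2 1.42.0 was an alternative. No transcript lengths were used, so the shares of paralog pairs and the cut on level for comparison genes are not corrected for length. Other levels were not compared between genes. Each of the 18 pairs of libraries within a group differed more than sampling of reads allows (chi-square over its degrees of freedom, 5.06 to 53.2), and p-values measure the spread between these libraries.

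ATAC peaks were deposited by the authors as 1 list per condition with a fold enrichment (ratio) and a −log10 q-value per peak, and MACS2 2.2.7 is named in the submitters' processing notes. Of the deposited boundary lists, which carry a score of unstated scale, only positions were used, as of the deposited loops. Pooling of libraries before the peak calls: not given in the sources used here.

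Genes named are a fixed panel with the paralog pairs, the 3 largest called rises and falls of each comparison, the 6 core genes that range most against the core median, and, per list, at most 4 called genes with the largest change and those against its majority. The genes with printed sequences and the stalk group were chosen after values were seen. Members and lists were chosen with earlier results of these data known. Alternatives were other scalings, filters, fits and each library left out. The scripts were tested on simulated data. A gene of these lists is not reported here.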

Additional observations from a re-analysis of the deposited data

How the results depend on the processing

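Of 893 recomputed counts, medians and shares of 39 results, 761 stayed close to the reported value (counts within 1.5 times, medians within 0.048, the SD of the libraries' median log2 CPM within groups, and shares within 1 SD), and of 2220 recomputed values of named genes 2145 kept direction and call, 45 lost the call, 29 gained it and 1 changed sign, Rpl7l1 at 60 h with the long-transcript covariate (-0.14). The causes were not tested, and the numbers called over all genes also changed with the setting. At 12 h the genes higher were 2 with RLE scaling, total counts, no filter, a 1 CPM filter and DESeq2, and those lower were 14 with no filter. Genes higher were 0 at 60 h with RLE, total counts, the protein-coding library size, no filter, the 1 CPM filter, the covariate and DESeq2, and 0 at 96 h with upper-quartile scaling, total counts, the protein-coding library size and no filter. Upper-quartile scaling gave medians of -0.24 at 24 h and -0.14 from 12 to 24 h, with 2 higher in that step, and 24 higher and 2 lower from 48 to 60 h. Total counts gave medians of -0.24 at 24 h, -0.58 at 60 h, -0.74 at 96 h, -0.35 from 24 to 48 h and 0.029 from 48 to 60 h (17 higher, 4 lower), and 1 higher from 60 to 96 h. The covariate gave medians of -0.18, -0.35, -0.66 and -0.60 at 12, 24, 48 and 60 h, 0 higher at 24 h, 0 higher and 43 lower from 12 to 24 h, 9 higher and 0 lower from 48 to 60 h (median 0.067), and 1 higher and 2 lower from 60 to 96 h (median -0.039). From 12 to 24 h, 0 were higher with no filter or with the 2 groups alone. From 48 to 60 h, 2 were lower with no filter, the 1 CPM filter, the 2 groups alone and DESeq2. From 60 to 96 h, 1 was higher with the 2 groups alone and DESeq2. Within 1 bin of a boundary lay 17 starts in GM and 16 at 60 h.

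With each library left out in turn, genes lower at 12 h ranged from 8 to 26 and genes higher from 0 to 2. Counts over all genes are not given for these fits. Genes higher ranged from 0 to 1 at 24, 60 and 96 h, from 12 to 24 h and from 60 to 96 h. From 48 to 60 h, 19 to 35 were higher, 1 to 2 lower, and the median ran from 0.081 to 0.14. The median ran from -0.090 to -0.058 at 12 h and from -0.29 to -0.24 at 24 h.

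With a replicate block, 23, 71, 79, 74 and 80 genes were lower at 12, 24, 48, 60 and 96 h, and 34 were higher from 48 to 60 h. Of all 15303 genes, 2574, 4659, 5011, 4890 and 5185 were then lower at these times. From 48 to 60 h, 2359 of all genes were higher. Libraries that share a replicate number did not deviate together: over 45 pairs the correlation ran from -0.18 to 0.15, and 1 of 18 libraries correlated best with its own number.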
